A study of Oryza sativa with 16 samples.

Results

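The genotype by drought interaction in the panicle was measured gene by gene, as the drought effect in DTY-IL minus the drought effect in Swarna. Of the 33698 loci tested, 20 had an interaction that passed an adjusted p of 0.05, and those 20 are described here one by one. They were found in 15 of the 16 panicle libraries of the series, with every locus of at least 10 counts in total entering the test. Swarna is an indica rice variety that yields poorly under drought. DTY-IL is a single introgression line with a Swarna background into which fragments of N22, a donor that tolerates drought, were bred, so that both genotypes share most of their genome. The groups were DTY-IL control (4 libraries), DTY-IL drought (4), Swarna control (3 of 4) and Swarna drought (4), all from potted plants in 1 greenhouse. Control plants stayed well watered. Drought plants were held at 75% of field capacity for 9 days from the R2 stage onwards and then at 50% for 3 days, and panicles of all groups were taken on day 12. Swarna control replicate 3, which the study treats as an outlier, was left out.

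An interaction asks a different question from a list of drought-responsive genes. A gene that rises or falls by the same factor in both genotypes has an interaction of 0, and a gene that responds in 1 genotype, in both to unequal degrees or in opposite directions has one that differs from 0. Rice panicles stressed during reproductive development are known to accumulate abscisic acid and to induce protective proteins such as dehydrins. Cell division and carbon supply are also known to slow. These changes are among those linked to reduced grain set under drought at this stage. RNA came from whole panicles, so that fewer cells of a type and less RNA per cell cannot be told apart in any value below.

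The panicle origin of the RNA was visible in 15 loci listed as floral organ identity MADS-box genes, which ranged from 13.4 to 515 CPM as group means. Total counts ran from 24677520 to 31080042 per library. Values are CPM, the counts scaled to a common library total with TMM factors, log2 differences carry their standard error, and replicate numbers are those of the count columns. Adjusted p-values are those of edgeR's quasi-likelihood test after Benjamini-Hochberg adjustment over all loci tested.

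The drought effect passed an adjusted p of 0.05 at 14918 loci in Swarna (44.3%) and at 11120 in DTY-IL (33%). The interaction passed at 20 loci, 0.0594% of those tested, of which 11 were positive and 9 negative, and 19 had an absolute log2 difference of at least 1. Without adjustment 4149 loci (12.3%) had an interaction p under 0.05, 1939 positive and 2210 negative, and in 3512 of these the Swarna effect was the larger in absolute size. DESeq2 without its prior called 691 of 33600 loci (2.06%), 295 positive and 396 negative, and all 20 were among them. With all 16 libraries edgeR called 0 loci at the adjusted threshold, while 3300 had an unadjusted p under 0.05.

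A single direction ran through most of the 20. All 11 positive loci passed for a fall in Swarna under drought, and 8 of the 9 negative loci passed for a rise. Thus 19 of 20 passed for drought in Swarna against 14 in DTY-IL. The absolute drought effect was larger in Swarna at 18 of the 20, where 67.4% of all loci tested lay on that side. So did 3512 of the 4149 loci with an unadjusted interaction p under 0.05, so this side is not particular to the called loci. The 2 exceptions were LOC_Os10g32470 and LOC_Os07g41170. Over all loci the DTY-IL effects followed the Swarna effects with a slope of 0.56. Between the genotypes 18 of the 20 differed under drought, where the background was 5% of loci, and 4 differed in control plants, where it was 1.2%. The interaction is also the genotype difference under drought minus that in control plants. These 2 counts are therefore parts of it and not separate evidence. The drought groups of the genotypes did not overlap at 18 of the 20, against 13.3% of all loci, but this measure uses the same libraries as the interaction.

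**Figure D1:**
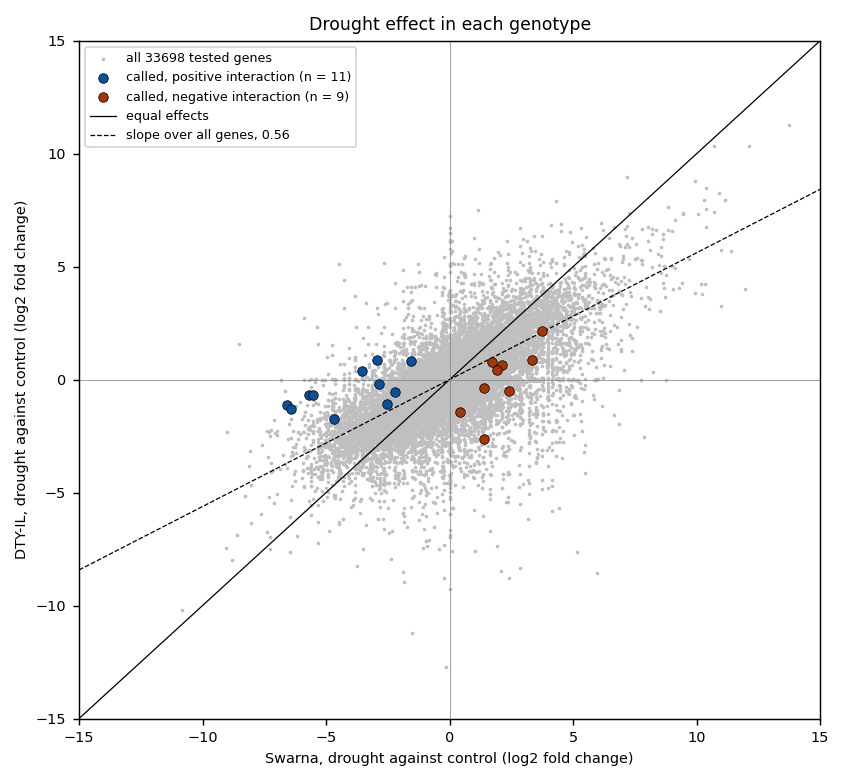
Drought effect in DTY-IL (vertical axis, log2 fold change of drought against control) against that in Swarna (horizontal axis) for 33698 loci in grey, with the 11 positive called loci in blue and the 9 negative in orange. The blue points lie left of 0 and above the line of equal effects, and the orange points lie right of 0 and below it. The dashed line has the slope over all loci, 0.56.

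LOC_Os07g47990 had the lowest p-value of all loci. It stood at 8.09, 7.92, 10.9 and 6.75 CPM in DTY-IL control, 14.4, 17.5, 14.3 and 14.9 in DTY-IL drought, 5.05, 6 and 4.64 in Swarna control and 0.618, 0.925, 0.765 and 0.437 in Swarna drought libraries. DTY-IL drought libraries were all above DTY-IL controls, and Swarna drought libraries were all below Swarna controls, with no overlap between any of the 4 groups. Drought changed it by 0.86 ± 0.20 on the log2 scale in DTY-IL (adjusted p = 0.00571, edgeR) and by -2.92 ± 0.24 in Swarna (adjusted p = 1.73e-06). Its interaction was 3.78 ± 0.31 (adjusted p = 0.000202, edgeR), while the control groups differed by 0.69 ± 0.22 (adjusted p = 0.22). The gene therefore rose under drought in one genotype and fell in the other. It passed in all 15 fits that each left out 1 library, with adjusted p between 0.000131 and 0.00203.

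LOC_Os07g47990 is given by identifier, as its annotation was not used here, and the loci next to it in identifier order include 1 that the study names. LOC_Os07g48020, 2 tested loci away, is one of the class III peroxidases that the study's text names in a flag-leaf module. Enzymes of this class are secreted into the cell wall, where they use hydrogen peroxide either to crosslink wall polymers and lignin or to generate radicals that loosen the wall. LOC_Os07g48020 stood at 0.595, 0.851, 0.034 and 0.728 CPM in DTY-IL control, 5.97, 40.3, 13.5 and 0.565 in DTY-IL drought, 0.329, 0.277 and 0.143 in Swarna control and 0.0727, 0.259, 0 and 0.0795 in Swarna drought libraries. In 3 of the 4 DTY-IL drought libraries the level was higher than in every library of the other groups, and replicate 4 lay within the range of the DTY-IL controls. Its drought effect passed in DTY-IL with 4.77 ± 1.02 (adjusted p = 0.00356, edgeR), and was -1.23 ± 1.42 in Swarna (adjusted p = 0.505). The interaction of 6.0 ± 1.72 did not pass (adjusted p = 0.21, edgeR; unadjusted p = 0.0035).

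The 3 tested loci directly after LOC_Os07g47990 all had interactions of its sign with an unadjusted p under 0.05, and none passed after adjustment. LOC_Os07g48010, the first, changed by 4.68 in DTY-IL and -0.60 in Swarna on the log2 scale. LOC_Os07g48030, which follows LOC_Os07g48020, changed by -2.89 and -7.58, falling in both genotypes. Further along, LOC_Os07g48060, LOC_Os07g48070 and LOC_Os07g48080 had interactions of the other sign, -3.31, -5.06 and -3.05. Of the 20 tested loci around LOC_Os07g47990, the 3 directly after it were the only ones with its sign and an unadjusted p under 0.05, and 4 passed that limit with the other sign. Loci of a tandem family can share reads in transcript quantification, and how far these do was not tested.

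**Figure D2:**
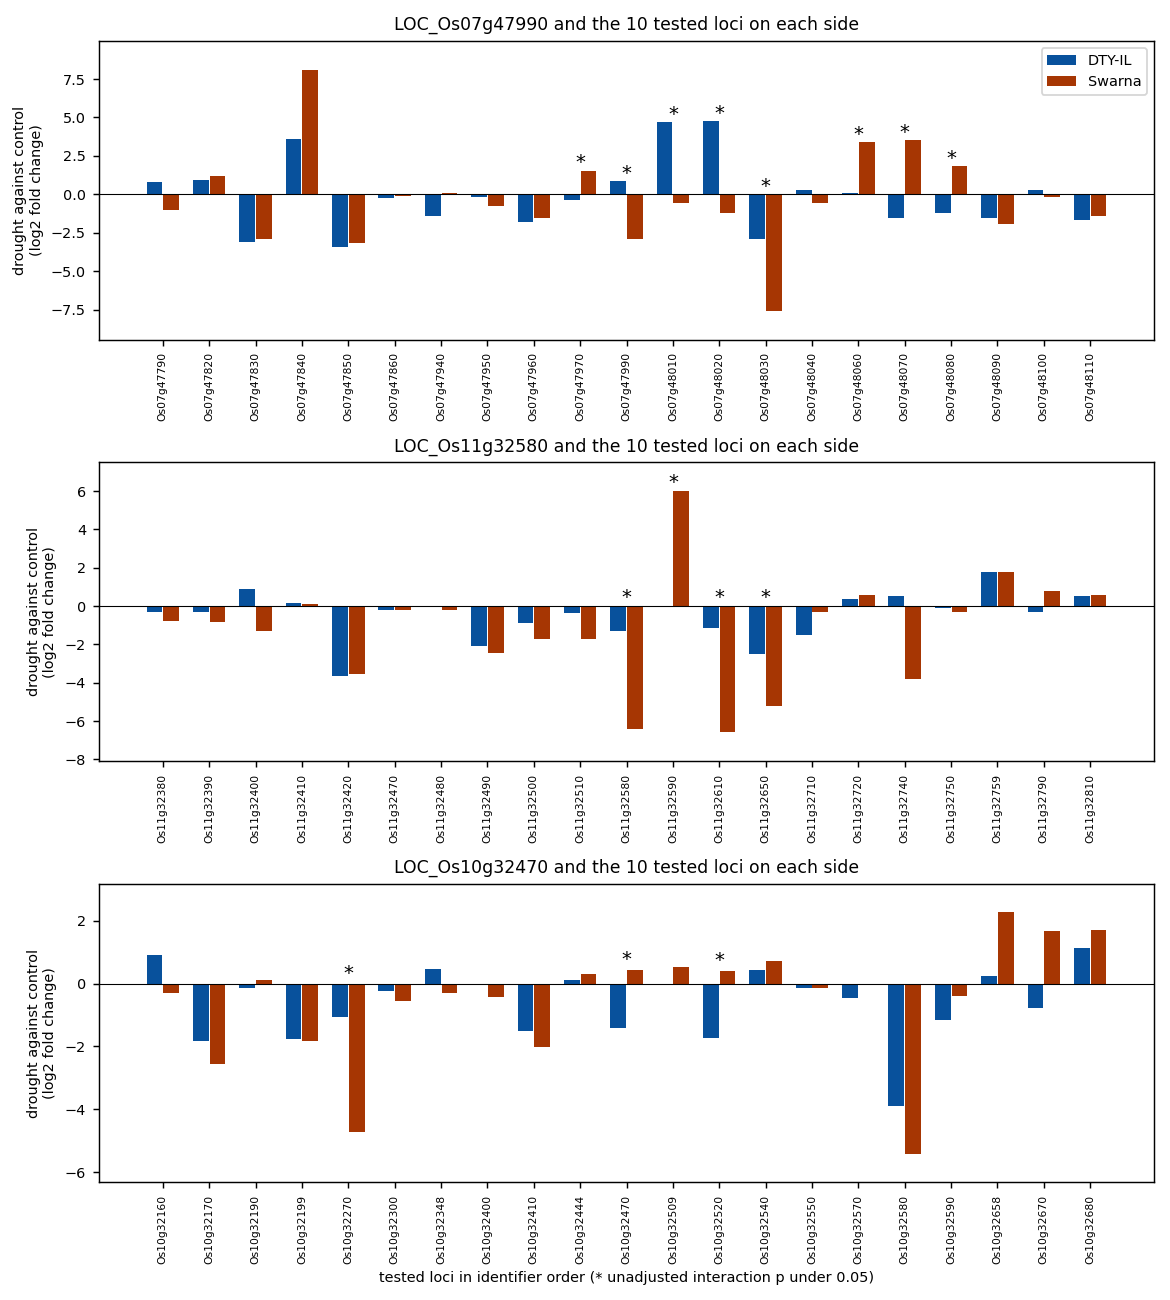
Drought effects (log2 fold change) in DTY-IL (blue) and Swarna (orange) for 3 called loci, each at the centre of a panel, and the 10 tested loci on either side in identifier order; asterisks mark an unadjusted interaction p under 0.05. The asterisks around LOC_Os07g47990 stand over changes of both signs, while LOC_Os11g32580 and LOC_Os11g32610 fell steeply in Swarna and slightly in DTY-IL.

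A neighbouring pair on chromosome 11 followed in the order of p-values. LOC_Os11g32580 stood at 7.46, 6.02, 8.2 and 6.83 CPM in DTY-IL control, 3.94, 2.61, 2.44 and 2.67 in DTY-IL drought, 3.66, 2.53 and 2.32 in Swarna control and 0, 0.037, 0.0765 and 0 in Swarna drought libraries. LOC_Os11g32610, 2 tested loci away, stood at 7.73, 5.43, 6.19 and 6.19 CPM in DTY-IL control, 4.2, 2.13, 2.67 and 2.64 in DTY-IL drought, 2.52, 2.15 and 2.03 in Swarna control and 0, 0, 0 and 0.0795 in Swarna drought libraries. Both were close to absent in every Swarna drought library and were detected in every DTY-IL drought library. In counts, LOC_Os11g32580 had 3 in the 4 Swarna drought libraries together against 238 in 3 Swarna control libraries, which is 1% of the control level (95% exact interval 0.205 to 2.97%). LOC_Os11g32610 had 2 against 188, or 0.846% (0.102 to 3.1%). These intervals cover counting error only.

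In DTY-IL the fall of the pair was modest, -1.29 ± 0.31 for LOC_Os11g32580 (adjusted p = 0.00633, edgeR) and -1.13 ± 0.34 for LOC_Os11g32610 (adjusted p = 0.0196). The interactions were 5.15 ± 0.60 (adjusted p = 0.00932, edgeR) and 5.44 ± 0.69 (adjusted p = 0.0173), sizes that depend on the prior count because the Swarna drought counts were so low. Control levels were higher in DTY-IL in every library of both loci, without passing the test (adjusted p = 0.0923 and 0.082, edgeR). LOC_Os11g32650, the next tested locus, had a mean of 11150 normalized counts and followed the same order, with -2.49 in DTY-IL, -5.2 in Swarna and an interaction of 2.71 (unadjusted p = 0.017). LOC_Os11g32590, which lies between the pair, went the other way, with an interaction of -5.98 on a mean of 2.52 normalized counts. The pair was the only one among the 20 loci within 20 tested loci of each other. It averaged 90.4 and 81.45 normalized counts, far fewer than LOC_Os11g32650. How far these neighbouring loci share reads in transcript quantification was not tested, so their values may not be independent.

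Another 4 loci fell steeply in Swarna panicles under drought without a passing change in DTY-IL. LOC_Os01g18120 stood at 1.68, 1.18, 0.918 and 1.29 CPM in DTY-IL control, 0.774, 0.911, 0.726 and 0.716 in DTY-IL drought, 0.805, 1.7 and 1.07 in Swarna control and 0, 0.037, 0.0382 and 0 in Swarna drought libraries. LOC_Os04g43270 stood at 3.44, 2.45, 3.27 and 1.86 CPM in DTY-IL control, 2.29, 1.35, 1.18 and 2.11 in DTY-IL drought, 1.02, 1.07 and 1.11 in Swarna control and 0, 0.074, 0 and 0 in Swarna drought libraries. For each, the 4 Swarna drought libraries held 2 counts in all, 1.58% of the control level for LOC_Os01g18120 (0.188 to 5.84%) and 1.77% for LOC_Os04g43270 (0.211 to 6.57%). At both, the drought groups of the genotypes did not overlap, with DTY-IL the higher. Their interactions were 4.98 ± 0.69 (adjusted p = 0.0323, edgeR) and 4.85 ± 0.78 (adjusted p = 0.0407).

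LOC_Os01g70830 stood at 15.3, 11.1, 8.74 and 5.62 CPM in DTY-IL control, 12, 12.4, 15.9 and 12.6 in DTY-IL drought, 3.77, 3.74 and 3.53 in Swarna control and 0.618, 0.407, 0.0765 and 0.119 in Swarna drought libraries. Its DTY-IL drought libraries fell within the range of the DTY-IL controls or just above it, while Swarna drought libraries were below all others. The drought effect was 0.37 ± 0.37 in DTY-IL (adjusted p = 0.461, edgeR) and -3.56 ± 0.47 in Swarna (adjusted p = 5.67e-05), with an interaction of 3.93 ± 0.60 (adjusted p = 0.0323). LOC_Os04g08550, one of the loci that the study assayed by qRT-PCR, stood at 46.2, 39.9, 52.8 and 54.1 CPM in DTY-IL control, 64.9, 26.2, 31.7 and 46.5 in DTY-IL drought, 40.8, 33.9 and 29.8 in Swarna control and 6.14, 6.81, 2.91 and 3.42 in Swarna drought libraries. The DTY-IL drought range enclosed the DTY-IL control range, and the Swarna drought libraries lay below all others. Drought changed it by -0.19 ± 0.29 in DTY-IL (adjusted p = 0.649, edgeR) and by -2.85 ± 0.33 in Swarna (adjusted p = 2e-05), for an interaction of 2.66 ± 0.43 (adjusted p = 0.0449).

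Another 3 loci fell in both genotypes and further in Swarna, LOC_Os09g27890 and LOC_Os01g08320 from similar control levels. LOC_Os09g27890 stood at 23.7, 19.1, 22.6 and 21.9 CPM in DTY-IL control, 8.81, 7.16, 6.72 and 3.73 in DTY-IL drought, 26.1, 19 and 19.2 in Swarna control and 1.42, 0.666, 0.841 and 0.397 in Swarna drought libraries. The control groups overlapped, and the lowest DTY-IL drought library was still above the highest Swarna drought library. The fall was -1.72 ± 0.29 in DTY-IL and -4.68 ± 0.35 in Swarna, and the interaction was 2.95 ± 0.44 (adjusted p = 0.0323, edgeR). LOC_Os01g08320 stood at 56, 51.5, 53.2 and 48.9 CPM in DTY-IL control, 26.3, 28.7, 20.4 and 24.6 in DTY-IL drought, 56.2, 51.5 and 50.7 in Swarna control and 8.76, 8.58, 6.84 and 12 in Swarna drought libraries. Here, too, the controls overlapped and the drought groups did not, and falls of -1.07 ± 0.15 and -2.55 ± 0.17 gave an interaction of 1.48 ± 0.22 (adjusted p = 0.0323, edgeR). LOC_Os02g09240 stood at 48.1, 49.1, 40.8 and 31.8 CPM in DTY-IL control, 32.1, 24.7, 27.3 and 32.4 in DTY-IL drought, 68.3, 63.1 and 67.5 in Swarna control and 14, 13.3, 11.8 and 18.8 in Swarna drought libraries. Its Swarna controls were above all DTY-IL controls and its Swarna drought libraries below all DTY-IL drought libraries, so the order of the genotypes was exchanged under drought. Its interaction was 1.65 ± 0.24 (adjusted p = 0.0323, edgeR).

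LOC_Os04g30200 was nearly specific to DTY-IL already in control plants. It stood at 10.5, 13.2, 13.6 and 10.3 CPM in DTY-IL control, 18.9, 24.4, 18.9 and 21.7 in DTY-IL drought, 0.805, 0.451 and 0.535 in Swarna control and 0.0727, 0.222, 0.229 and 0.278 in Swarna drought libraries. Every DTY-IL library was above every Swarna library, and within each genotype the treatments did not overlap. The control difference was 4.31 ± 0.30 (adjusted p = 7.65e-07, edgeR), the largest genotype difference in controls among the 20. Under drought it rose by 0.82 ± 0.22 in DTY-IL (adjusted p = 0.0117, edgeR) and fell in Swarna, with -1.56 ± 0.33 (adjusted p = 0.00156), so that its interaction was 2.38 ± 0.39 (adjusted p = 0.0471). The Swarna libraries held 22, 13 and 15 counts in control and 2, 6, 6 and 7 under drought, so the Swarna fall rests on few reads. The locus passed in 2 of the 15 fits that each left out 1 library.

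**Figure D3:**
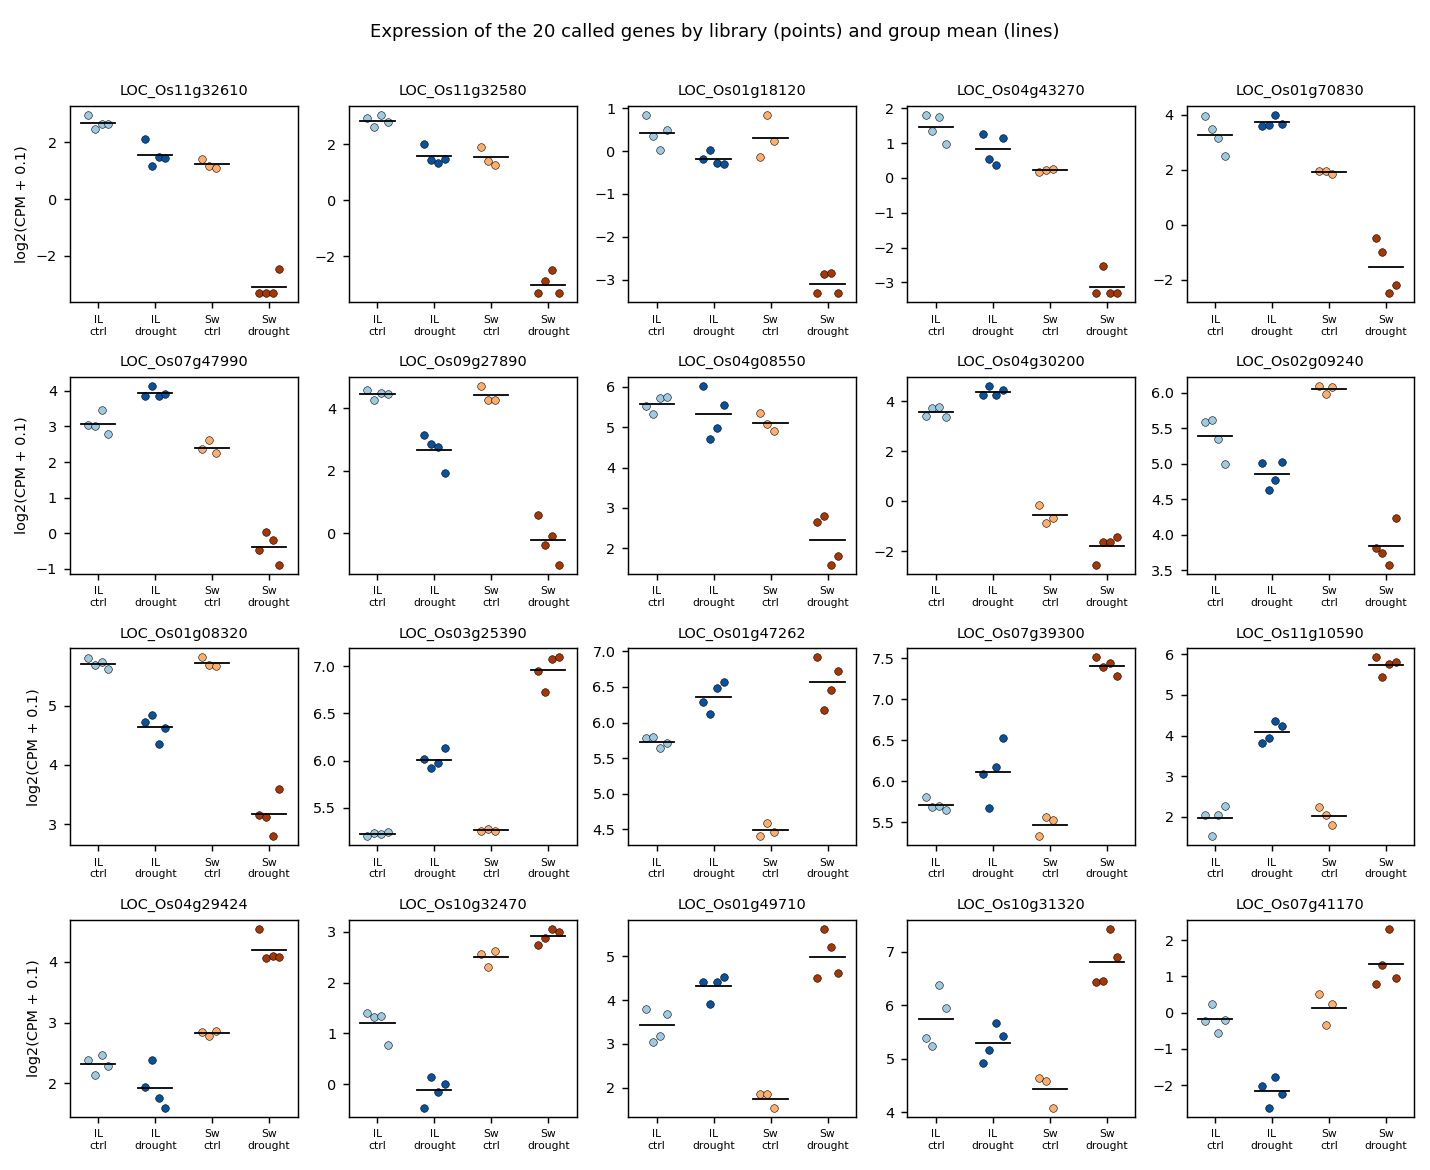
Expression of the 20 called loci in each library, as log2 of CPM plus 0.1 (vertical axis), for DTY-IL control, DTY-IL drought, Swarna control and Swarna drought (horizontal axis), with points for libraries and lines for group means; panels run from the highest interaction to the lowest. In the first 11 panels the Swarna drought points are the lowest of the 4 groups; in the last 9 they are the highest or overlap the highest.

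The negative loci were for the most part induced by drought, and more so in Swarna. LOC_Os10g31320 had the lowest p-value among them and stood at 41.8, 37.5, 83.3 and 62 CPM in DTY-IL control, 30.2, 35.8, 50.9 and 42.6 in DTY-IL drought, 24.9, 23.9 and 16.9 in Swarna control and 86.5, 87.8, 172 and 119.6 in Swarna drought libraries. All Swarna drought libraries were above all others, with DTY-IL control replicate 3 just below the lowest of them, and DTY-IL drought libraries overlapped the DTY-IL controls. Drought raised it in Swarna by 2.41 ± 0.33 (adjusted p = 6.64e-05, edgeR), whereas DTY-IL changed by -0.49 ± 0.28 (adjusted p = 0.186). Its interaction was -2.91 ± 0.42 (adjusted p = 0.0323).

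LOC_Os04g29424 stood at 5.12, 4.29, 5.41 and 4.77 CPM in DTY-IL control, 3.76, 5.15, 3.29 and 2.94 in DTY-IL drought, 7.1, 6.76 and 7.13 in Swarna control and 23.2, 16.5, 17 and 16.8 in Swarna drought libraries. Swarna drought libraries were above all others, and the DTY-IL drought and control ranges overlapped. It rose by 1.39 ± 0.20 in Swarna (adjusted p = 9.92e-05, edgeR), against -0.37 ± 0.18 in DTY-IL (adjusted p = 0.129). The interaction was -1.76 ± 0.27 (adjusted p = 0.0323).

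A rise in both genotypes, steeper in Swarna, was found at 5 loci. LOC_Os03g25390 had the tightest replicates and stood at 36.5, 37.5, 37.1 and 37.7 CPM in DTY-IL control, 64.4, 60.5, 62.5 and 70 in DTY-IL drought, 38, 38.5 and 38 in Swarna control and 123, 106, 135 and 137 in Swarna drought libraries. The control groups lay side by side, and the drought groups were separate from the controls and from one another. It rose by 0.79 ± 0.10 in DTY-IL and 1.72 ± 0.12 in Swarna, and its interaction of -0.93 ± 0.15 was the smallest of the 20 in absolute size (adjusted p = 0.0449, edgeR). LOC_Os07g39300 stood at 55.7, 51.2, 51.7 and 50.1 CPM in DTY-IL control, 68, 50.8, 72 and 91.8 in DTY-IL drought, 40.1, 47.2 and 45.8 in Swarna control and 182, 168, 173 and 155 in Swarna drought libraries. One DTY-IL drought library, replicate 2, lay within the DTY-IL control range, and all Swarna drought libraries were above all others. Its interaction was -1.5 ± 0.22 (adjusted p = 0.0323, edgeR).

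LOC_Os11g10590 stood at 4.06, 2.78, 4.01 and 4.69 CPM in DTY-IL control, 14, 15.3, 20.5 and 18.6 in DTY-IL drought, 4.65, 4.06 and 3.39 in Swarna control and 60.6, 43.6, 54.6 and 56.5 in Swarna drought libraries. Controls of both genotypes overlapped, and the drought groups were separate. It rose by 2.14 ± 0.18 in DTY-IL and 3.74 ± 0.22 in Swarna, and its interaction of -1.6 ± 0.27 was the last to pass (adjusted p = 0.0493, edgeR).

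At the remaining 2 of the 5, the genotypes differed in control plants and met under drought. LOC_Os01g47262 stood at 54.9, 55.6, 49.7 and 52.2 CPM in DTY-IL control, 78.2, 69.3, 89.1 and 95.1 in DTY-IL drought, 21, 24 and 21.8 in Swarna control and 121, 71.9, 87.8 and 106 in Swarna drought libraries. LOC_Os01g49710 stood at 13.7, 8.12, 8.95 and 12.7 CPM in DTY-IL control, 21.1, 15, 21 and 22.8 in DTY-IL drought, 3.51, 3.5 and 2.82 in Swarna control and 22.6, 49.2, 37.2 and 24.4 in Swarna drought libraries. In control plants every DTY-IL library was above every Swarna library at both loci, while the drought groups of the genotypes overlapped. The control difference was 1.25 ± 0.17 for LOC_Os01g47262 (adjusted p = 0.000763, edgeR) and 1.73 ± 0.29 for LOC_Os01g49710 (adjusted p = 0.00474). The interactions were -1.47 ± 0.23 (adjusted p = 0.0323, edgeR) and -2.47 ± 0.38 (adjusted p = 0.0323).

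LOC_Os10g32470 and LOC_Os07g41170 stood apart from the other 18, since their larger effect was a fall in DTY-IL. LOC_Os10g32470 stood at 2.54, 2.39, 2.45 and 1.62 CPM in DTY-IL control, 0.626, 1, 0.802 and 0.904 in DTY-IL drought, 5.82, 4.85 and 6.03 in Swarna control and 6.58, 7.29, 8.22 and 7.91 in Swarna drought libraries. The 4 DTY-IL drought libraries were below every other library, and all Swarna libraries were above all DTY-IL libraries. It fell in DTY-IL, with -1.43 ± 0.20 (adjusted p = 0.000294, edgeR), was lower there in controls already (-1.3 ± 0.21, adjusted p = 0.0031) and changed in Swarna by 0.43 ± 0.21 (adjusted p = 0.105). Its interaction was -1.86 ± 0.29 (adjusted p = 0.0372).

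A second locus, LOC_Os10g32520, 2 tested loci from LOC_Os10g32470, had nearly the same profile just outside the threshold. It stood at 2.77, 2.75, 2.25 and 3.27 CPM in DTY-IL control, 0.774, 0.565, 0.917 and 1.05 in DTY-IL drought, 7.5, 9.19 and 5.14 in Swarna control and 8.58, 11.8, 6.69 and 11.4 in Swarna drought libraries. Again DTY-IL drought libraries were the lowest and all Swarna libraries were above all DTY-IL libraries, with an interaction of -2.14 ± 0.37 (adjusted p = 0.0559, edgeR).

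LOC_Os07g41170 was expressed at a low level and stood at 0.76, 1.08, 0.578 and 0.768 CPM in DTY-IL control, 0.147, 0.0628, 0.191 and 0.113 in DTY-IL drought, 1.32, 0.693 and 1.07 in Swarna control and 1.64, 2.37, 4.86 and 1.83 in Swarna drought libraries. Every DTY-IL drought library was below every other library and every Swarna drought library above every other. It fell in DTY-IL, with -2.61 ± 0.46 (adjusted p = 0.00111, edgeR), and it rose in Swarna, with 1.38 ± 0.42 (adjusted p = 0.0162). The interaction was -3.99 ± 0.63 (adjusted p = 0.0372).

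**Figure D4:**
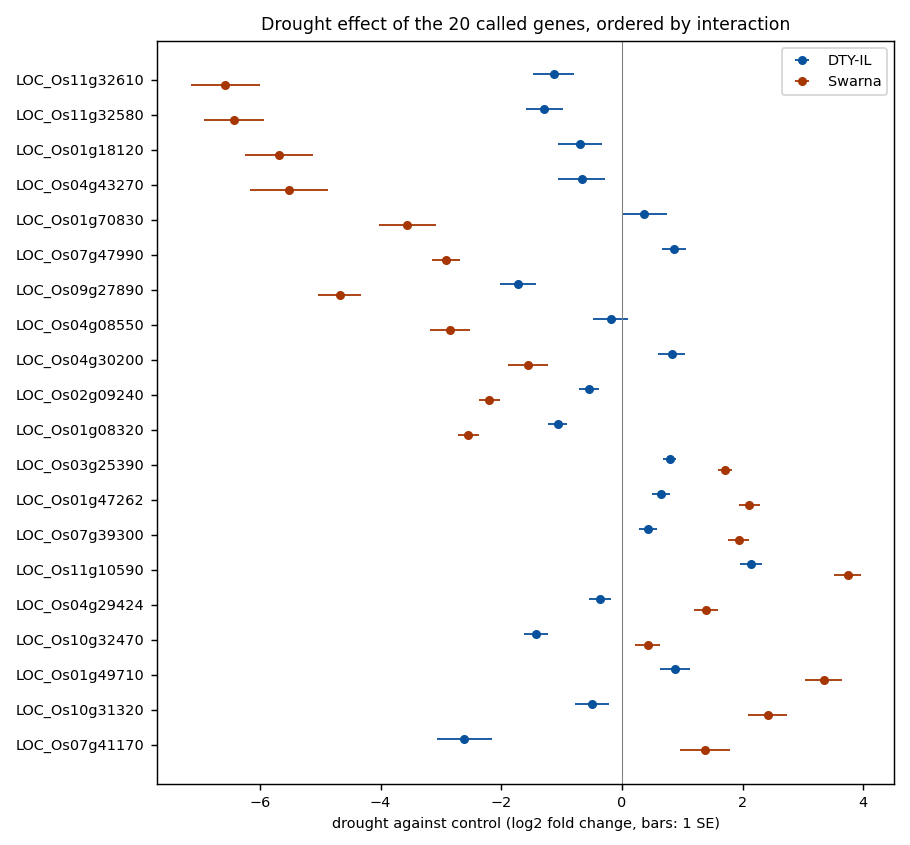
Drought effect of each of the 20 called loci (horizontal axis, log2 fold change of drought against control, bars 1 SE) in DTY-IL (blue) and Swarna (orange), ordered from the highest interaction at the top to the lowest. The orange points lie farther from 0 than the blue ones at 18 of the 20 loci, the exceptions being LOC_Os10g32470 and LOC_Os07g41170.

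How firmly each locus was called varied. LOC_Os07g47990 and LOC_Os11g32580 passed in all 15 fits that left out 1 library, LOC_Os11g32610 in 12 and LOC_Os01g18120 in 8, and 13 of the 20 passed in at most 5. The number called was 2 without Swarna control replicate 1, Swarna control replicate 2 or Swarna drought replicate 3. It was 3 without Swarna control replicate 4 or DTY-IL drought replicate 1, 4 without DTY-IL control replicate 1, and 5 without DTY-IL control replicate 2 or 4. Leaving out DTY-IL drought replicate 2 or Swarna drought replicate 2 gave 10 and 11. The direction of all 20 was kept in each of these fits and with all 16 libraries.

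The left-out Swarna control replicate 3 lay outside the range of the other 3 Swarna controls at 19 of the 20 loci, and at 81% of all loci tested. On a log2 scale it was nearer to the Swarna drought mean than to the Swarna control mean at 10 of the 20, against 56.1% of all loci. It held 0.694 CPM of LOC_Os07g47990, within the Swarna drought range, and no count of LOC_Os11g32580 or LOC_Os11g32610. It held 11.4 CPM of LOC_Os01g18120, above every other library. At the tissue markers named next, though not at every listed marker, it lay outside both Swarna groups. The photosynthesis locus LOC_Os12g17600 was at 29960 CPM, against 1475 to 3355 in the other Swarna controls and 34.8 to 160 under drought. The floral MADS-box loci LOC_Os05g34940 and LOC_Os01g66030 were at 0 and 5.93 CPM, against 68.5 to 74.7 and 284 to 325 in those controls. The tissue content of this library was not tested. All 20 calls therefore rest on 3 Swarna control libraries.

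Just outside the threshold the next 10 loci by p-value had adjusted p-values of 0.0558 and 0.0559, with 6 positive and 4 negative interactions. LOC_Os06g40170 fell in both genotypes, with -1.94 ± 0.32 in DTY-IL and -4.73 ± 0.38 in Swarna. LOC_Os01g24790 did likewise, with -2.27 ± 0.50 and -6.98 ± 0.68. LOC_Os11g17504, a hub of one of the study's panicle modules, stood at 45.4 to 74.2 CPM in DTY-IL control, 50.4 to 69.3 in DTY-IL drought, 49.6 to 58 in Swarna control and 17.4 to 25.1 in Swarna drought libraries. Its drought effect passed in Swarna alone (-1.41 ± 0.17, adjusted p = 3.43e-05, edgeR, against -0.05 ± 0.16, adjusted p = 0.834, in DTY-IL). LOC_Os02g53960 had 2 counts in the Swarna drought libraries against 94 in Swarna controls.

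LOC_Os11g05930 and LOC_Os01g34330 rose in both genotypes and more in Swarna, by 2.36 ± 0.14 against 1.35 ± 0.12 and by 1.35 ± 0.10 against 0.57 ± 0.09. LOC_Os01g53090 passed for drought in Swarna alone, rising by 2.3 ± 0.27 (adjusted p = 2.36e-05, edgeR), against 0.26 ± 0.23 in DTY-IL (adjusted p = 0.407). LOC_Os04g03796 belonged to DTY-IL in both treatments, at 20.6 to 23.8 CPM in control and 19 to 24 under drought, against 0.25 to 0.416 in Swarna control. Drought changed it by -0.06 ± 0.20 in DTY-IL and by -2.8 ± 0.42 in Swarna. The Swarna libraries held 11, 12 and 7 counts in control and 1, 0, 2 and 2 under drought, so that fall rests on few reads. The left-out library held 19.9 CPM of it, a level found otherwise in DTY-IL only.

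LOC_Os01g53190 and its neighbour LOC_Os01g53180 had the reverse bias. LOC_Os01g53190 stood at 0.198, 0.196, 0.442 and 0.243 CPM in DTY-IL control, 1.18, 0.44, 0.42 and 1.13 in DTY-IL drought, 9.66, 8.67 and 6.74 in Swarna control and 1.6, 1.59, 1.03 and 3.34 in Swarna drought libraries. The difference between genotypes in controls was -4.93 ± 0.50 (adjusted p = 4.3e-05, edgeR), and it narrowed under drought as Swarna fell and DTY-IL rose. LOC_Os01g53180 stood at 0.231 to 0.458 CPM in DTY-IL control and 11.8 to 19 in Swarna control libraries, with a control difference of -5.31 ± 0.54 (adjusted p = 4.81e-05, edgeR). The left-out library held 0.189 and 0.316 CPM of these 2 loci, close to the DTY-IL control levels and far below the other Swarna controls. Yet it held 18.2 CPM of LOC_Os12g35465 and none of LOC_Os04g30200, which is the Swarna side of both.

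Drought effects that passed in both genotypes with opposite signs were found at 15 loci, 0.0445% of those tested. In 6 of them DTY-IL rose and Swarna fell, in 9 the reverse, and 3 of the 15 had an interaction that passed. Besides LOC_Os07g47990, LOC_Os04g30200 and LOC_Os01g53190, the first kind held LOC_Os09g29600, LOC_Os02g12070 and LOC_Os09g30510. LOC_Os09g29600 stood at 3.6, 3.6, 2.62 and 2.87 CPM in DTY-IL control, 4.5, 11.2, 6.99 and 6.44 in DTY-IL drought, 2.89, 3.54 and 4.14 in Swarna control and 1.71, 2.11, 1.26 and 0.993 in Swarna drought libraries. It rose by 1.2 ± 0.29 in DTY-IL (adjusted p = 0.00655, edgeR) and fell in Swarna, with -1.21 ± 0.31 (adjusted p = 0.0061). LOC_Os02g12070 was lower in level, 1.22 to 4.12 CPM in DTY-IL drought and 0.199 to 0.777 in Swarna drought libraries. Both are drawn as hubs of the module that the study named P-M10, which it picked for high expression in DTY-IL under drought in these same libraries.

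Of the second kind, LOC_Os03g43930 had the highest expression. It stood at 53.7, 36.2, 60.8 and 38.6 CPM in DTY-IL control, 35.1, 30.2, 24.2 and 36.1 in DTY-IL drought, 33.1, 30.6 and 34.1 in Swarna control and 60.4, 40.2, 47.5 and 45.5 in Swarna drought libraries. DTY-IL drought libraries were all below the DTY-IL controls and Swarna drought libraries all above the Swarna controls, and effects of -0.59 ± 0.18 and 0.57 ± 0.20 gave an interaction of -1.16 ± 0.27 (adjusted p = 0.145, edgeR). LOC_Os12g35465 was present almost only in Swarna, at 8.24 to 9.95 CPM in control and 19.5 to 25.2 under drought, with 11 counts in the 4 DTY-IL control and 0 in the 4 DTY-IL drought libraries. That fall in DTY-IL allows any level up to 41% of control (95% exact interval). LOC_Os11g47039 and LOC_Os04g03850 also had 0 counts in DTY-IL drought libraries, after 8 and 14 in DTY-IL controls. The opposite signs of these 3 loci thus rest on a few reads in DTY-IL.

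The 691 loci that DESeq2 called include larger interactions that edgeR did not pass. Of these 691, 422 averaged 50 normalized counts or more and had drought groups that did not overlap, 177 positive and 245 negative. Of the 10 largest in each direction by edgeR's estimate, 16 were outside edgeR's call, with adjusted p-values from 0.0559 to 0.228. As they were picked by size and by their lack of overlap, the values are descriptions.

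Among the positive ones, LOC_Os03g22230 fell to 0 to 0.199 CPM in Swarna drought libraries from 6.71 to 12.3 in control, whereas DTY-IL held 1.28 to 7.52 under drought. LOC_Os07g10940 fell in Swarna to 0.074 to 0.363 CPM from 8.24 to 10.4, against 0.802 to 8.51 in DTY-IL drought libraries. LOC_Os11g18110 went from 9.04 to 11.7 to 0 to 0.254 CPM in Swarna. In each of these the DTY-IL drought libraries differed several-fold among themselves.

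Among the negative ones, LOC_Os05g47730 and LOC_Os04g33920 reached the highest levels. LOC_Os05g47730 stood at 5.22, 0.72, 8.03 and 0.93 CPM in DTY-IL control, 43.7, 24, 36.9 and 109.7 in DTY-IL drought, 0.402, 0.416 and 0.214 in Swarna control and 728, 128, 265 and 239 in Swarna drought libraries. LOC_Os04g33920 stood at 3.63, 0.524, 6.33 and 0.687 CPM in DTY-IL control, 26.4, 21.1, 35.7 and 102 in DTY-IL drought, 0.439, 0.312 and 0.357 in Swarna control and 342, 106, 278 and 215 in Swarna drought libraries. Both were higher in each Swarna drought library than in any DTY-IL drought library, and both already varied between DTY-IL controls, with replicates 1 and 3 above replicates 2 and 4. The Swarna drought effects were 9.93 ± 1.2 and 9.3 ± 1.1, and the DTY-IL effects 3.84 ± 0.78 and 4.05 ± 0.74. LOC_Os12g27830 reached 9.14 to 13.8 CPM in Swarna drought libraries, 1185 counts in all after 2 in Swarna control libraries, against 0.502 to 4.14 CPM in DTY-IL drought libraries. LOC_Os08g18974, LOC_Os03g44250 and LOC_Os07g07790 also rose in Swarna, by 5.09 ± 0.94, 6.28 ± 1.0 and 6.92 ± 0.81.

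Gene groups whose drought response is well known were read beside these loci. The membership of each list rests on general knowledge of rice loci, since an annotation of RGAP 7 identifiers was not used here. Lists and members were also chosen with earlier results of these data known, so their counts are descriptions and not an independent test. No list member passed the interaction at the adjusted threshold. Counts at an unadjusted p under 0.05 are therefore given beside the 12.3% found over all loci, and the median interaction beside that of all loci, -0.03.

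DNA replication and cell cycle genes fell in Swarna throughout. MCM helicase subunits, PCNA and cyclins of this kind are expressed in dividing cells. A fall under drought passed an adjusted p of 0.05 (edgeR) at all 12 listed loci in Swarna and at 2 in DTY-IL. Every DTY-IL estimate was negative, from -0.007 to -1.54. Median log2 changes were -2.06 in Swarna and -0.67 in DTY-IL. The interaction was positive with an unadjusted p under 0.05 in 11 of 12, and its median was 1.49. LOC_Os01g36390 stood at 7.37, 11.1, 13.5 and 8.49 CPM in DTY-IL control, 7.48, 7.82, 7.6 and 5.27 in DTY-IL drought, 11.8, 9.64 and 15.6 in Swarna control and 2.98, 2.66, 1.42 and 2.62 in Swarna drought libraries. Swarna drought libraries were below all others, and DTY-IL drought libraries overlapped the DTY-IL controls. Its interaction was 1.83 ± 0.37 (adjusted p = 0.109, edgeR). LOC_Os02g55410 and LOC_Os05g14590 had interactions of 1.28 ± 0.29 and 1.41 ± 0.35 (adjusted p = 0.126 and 0.154), and both fell in Swarna, with -1.46 ± 0.21 and -1.7 ± 0.26. The exception was LOC_Os01g67160, at 0.08. The summed level of the 12 ran from 61.9 to 93.6 CPM in DTY-IL drought and from 39.4 to 49.6 in Swarna drought libraries, which did not overlap.

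Dehydrin, LEA and other ABA-induced genes, whose products protect cells during water loss, went the other way. A rise passed an adjusted p of 0.05 (edgeR) at all 8 listed loci in Swarna and at 7 in DTY-IL, where every estimate was positive. Median log2 changes were 7.66 in Swarna and 4.96 in DTY-IL. The interaction was negative with an unadjusted p under 0.05 in 6 of 8, and its median was -2.32. LOC_Os11g26790 stood at 6.97, 4.25, 4.56 and 4.37 CPM in DTY-IL control, 354, 100.4, 598 and 1128 in DTY-IL drought, 1.65, 1.56 and 1.11 in Swarna control and 2951, 978, 1834 and 1902 in Swarna drought libraries. Both genotypes rose in every library, and the highest DTY-IL drought library was above the lowest Swarna one. Its interaction was -3.62 ± 0.81 (adjusted p = 0.126, edgeR). LOC_Os05g46480 stood at 9.84, 8.31, 10.5 and 8.77 CPM in DTY-IL control, 136, 36.9, 253 and 314 in DTY-IL drought, 7.54, 6.24 and 4.96 in Swarna control and 637, 463, 746 and 738 in Swarna drought libraries. Here the drought groups did not overlap, with an interaction of -2.39 ± 0.66 (adjusted p = 0.194, edgeR). LOC_Os11g26750, which also belongs to the largest negative values above, went from 0.0366 to 0.139 CPM to 83.2 to 174 in Swarna. The summed level was 1620 to 4201 CPM in DTY-IL drought and 5997 to 7107 in Swarna drought libraries. Of the 8, 4 are neighbours on chromosome 11 and may share reads.

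Clade A PP2C genes encode phosphatases that hold ABA signalling in check and are themselves induced by it. Of 8 listed, 7 passed for a rise in each genotype (adjusted p of 0.05, edgeR), and every estimate was positive. Medians were 2.74 in Swarna and 1.93 in DTY-IL, and 4 loci had a negative interaction with an unadjusted p under 0.05. LOC_Os05g49730 ranged from 12 to 46.5 CPM in DTY-IL drought to 59.3 to 81.8 in Swarna drought libraries, without overlap, and its interaction was -1.59 ± 0.45 (adjusted p = 0.203, edgeR). LOC_Os05g46040 had -0.93 ± 0.30 (adjusted p = 0.247). In both groups DTY-IL drought replicate 2 had the lowest value of the 4 at the loci named here, LOC_Os11g26750 apart.

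The photosynthesis loci, markers of green tissue, passed for a fall at all 6 in Swarna and at 4 of 6 in DTY-IL (adjusted p of 0.05, edgeR). Every DTY-IL estimate was negative, from -1.27 to -2.36. These loci had a median interaction of 1.52 and an unadjusted p under 0.05 at 1. Their summed level spread from 801 to 6890 CPM over the DTY-IL drought libraries and from 1350 to 2623 over the Swarna drought libraries, so the groups overlapped. Floral organ identity MADS-box genes had 2 of 15 loci with a positive interaction at an unadjusted p under 0.05, heat shock genes 2 of 13 and anther, tapetum and pollen wall genes 3 of 18, both negative, and pollen MADS-box genes 0 of 3. The 3 anther loci were LOC_Os10g34360, LOC_Os07g22850 and LOC_Os03g07250, and at each of them DTY-IL control replicate 3 alone was high, at 28, 5.75 and 46.4 CPM. The summed anther level was 412 to 2483 CPM in DTY-IL control and 491 to 731 in Swarna control libraries. The part of green or anther tissue in the interactions above was not tested.

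**Figure D5:**
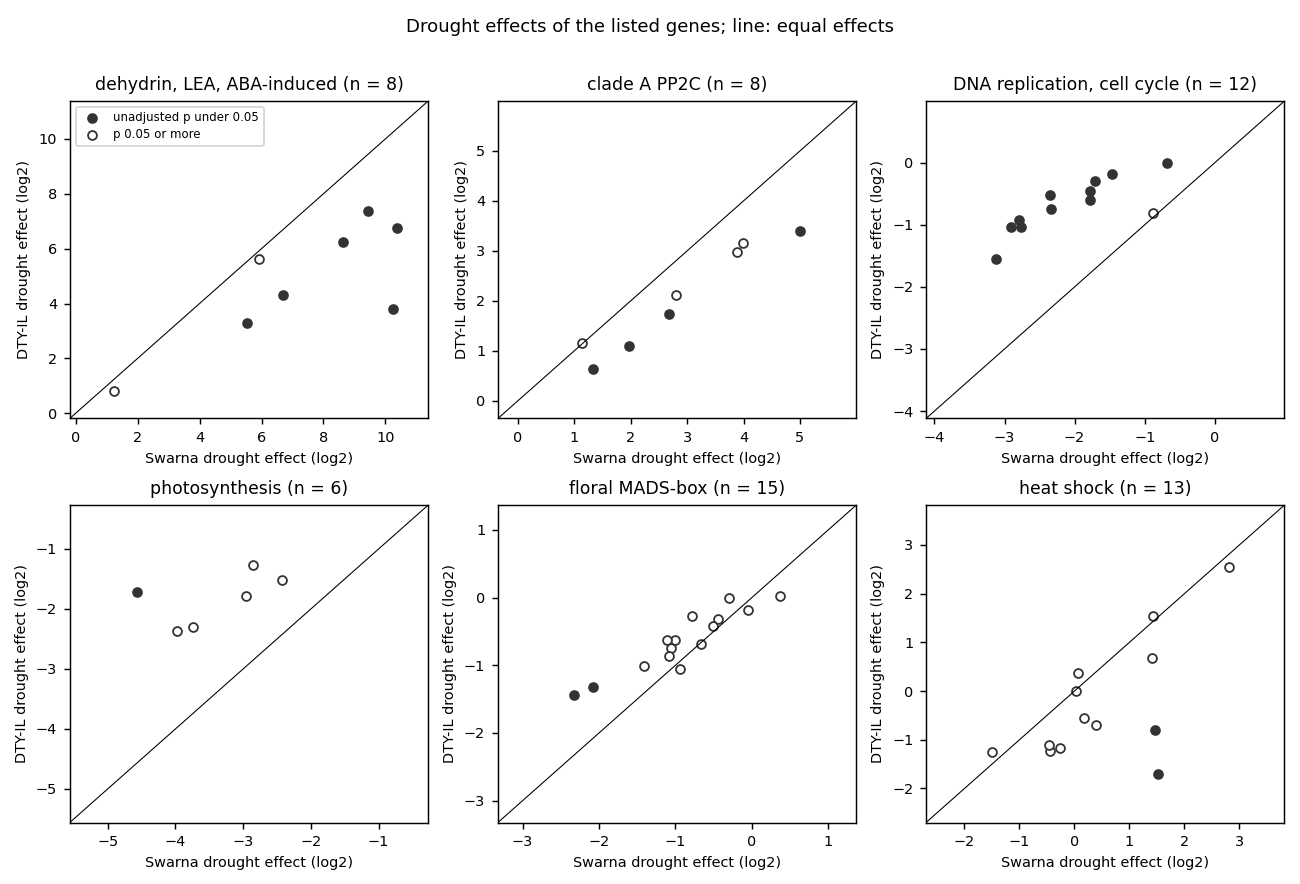
Drought effect in DTY-IL (vertical axis, log2 fold change) against that in Swarna (horizontal axis) for the members of 6 lists, with the line of equal effects; filled points have an unadjusted interaction p under 0.05. In the panel of DNA replication genes 11 of 12 points are filled and above the line, and in that of dehydrin and LEA genes 6 of 8 are filled and below it.

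The study names 8 loci with a function, which it had picked partly on these libraries, and none passed the interaction at the adjusted threshold. Its text places the 3 peroxidases among them in a flag-leaf module and reports a fall of LOC_Os01g66820 in DTY-IL flag leaves. The panicle values of these loci do not test those flag-leaf statements. Of the 8, 4 had an unadjusted p under 0.05, LOC_Os07g48020 among them. LOC_Os07g01370, another class III peroxidase, stood at 14.4, 4.97, 31.6 and 3.96 CPM in DTY-IL control, 2.29, 1.04, 0.726 and 0.791 in DTY-IL drought, 5.34, 4.75 and 5.1 in Swarna control and 15.4, 0.74, 1.68 and 0.874 in Swarna drought libraries. Its DTY-IL drought libraries were below all DTY-IL controls, and Swarna drought replicate 1 was above all Swarna controls while the other 3 were below. It fell in DTY-IL, with -3.5 ± 0.96 (adjusted p = 0.0133, edgeR), with an interaction of -3.39 ± 1.33 (adjusted p = 0.333). LOC_Os03g13200, the third peroxidase, varied from 3.04 to 164 CPM between DTY-IL controls, and its interaction of -2.37 ± 1.7 was within that spread (adjusted p = 0.604).

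LOC_Os07g22770, an AP2 domain protein of floral organ identity, changed by -1.68 ± 0.60 in Swarna (adjusted p = 0.0333, edgeR) and by 0.27 ± 0.53 in DTY-IL (adjusted p = 0.727), and its interaction of 1.95 ± 0.80 had an adjusted p of 0.345. LOC_Os01g67030, annotated as an auxin-responsive protein with a cytochrome b561 and DOMON domain and placed in qDTY1.1, was close to the detection limit, with 9 counts in 3 Swarna control and 1 in 4 Swarna drought libraries and at most 0.345 CPM in any DTY-IL library. Its interaction was 3.92 ± 1.37 (adjusted p = 0.28, edgeR). The study, which also assayed this locus by qRT-PCR, reports a rise in DTY-IL panicles and a fall in Swarna panicles under drought. In the counts, drought changed it by 0.91 ± 0.73 in DTY-IL (adjusted p = 0.353, edgeR) and by -3.01 ± 1.16 in Swarna (adjusted p = 0.0479).

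LOC_Os01g66120, a no apical meristem (NAC) protein, rose in both genotypes, by 1.88 ± 0.42 in DTY-IL (adjusted p = 0.00481, edgeR) and 2.45 ± 0.48 in Swarna (adjusted p = 0.00106). Its interaction was -0.58 ± 0.61 (adjusted p = 0.743), less than its standard error. LOC_Os03g03510, a calcium-linked kinase of the SnRK3 and CIPK type in qDTY3.2, stood at 76.1 to 116 CPM in DTY-IL drought and 151 to 244 in Swarna drought libraries. Its interaction was -0.34 ± 0.31 (adjusted p = 0.694, edgeR), and the control difference was -0.81 ± 0.23 (adjusted p = 0.141). Under drought the genotype difference passed, at -1.15 ± 0.22 (adjusted p = 0.00694, edgeR), and the study likewise reports this locus as lower in DTY-IL. LOC_Os01g66820, an inactive receptor kinase, had an interaction of 1.5 ± 1.07 (adjusted p = 0.6) at no more than 1.01 CPM in any of the 15 libraries.

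The 20 called loci were spread over 8 chromosomes, with 5 of 4488 tested loci on chromosome 1, 4 of 3037 on chromosome 4, 3 of 2610 on chromosome 7 and 3 of 2202 on chromosome 11. Chromosome 10 had 2, chromosomes 2, 3 and 9 had 1 each, and chromosomes 5, 6, 8 and 12 had none. At an unadjusted p under 0.05 the share ran from 10.6% of tested loci on chromosome 12 to 14.7% on chromosome 1. Among the loci within 10 tested loci of a called one, 58 of 381 (15.2%) had an unadjusted p under 0.05, against 12.3% of all loci, and 30 of the 58 had the sign of the called gene.

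Since the DTY-IL response was the smaller over all loci, the comparison was repeated with the Swarna effect multiplied by the slope of 0.56 before subtraction, a choice made after the data had been seen. This scaled interaction passed at 11 loci, and 3 of the 20 were among them. These were LOC_Os07g47990 (adjusted p = 0.00176, edgeR), LOC_Os10g32470 (0.0275) and LOC_Os07g41170 (0.0397), of which the first and the last changed in opposite directions and LOC_Os10g32470 fell in DTY-IL alone. LOC_Os11g32580 (adjusted p = 0.141, edgeR) and LOC_Os11g32610 (0.171) did not pass, nor did the 5 loci that rose in both genotypes. The slope comes from the same libraries. A separate slope, of the log2 change in each DTY-IL drought library on the mean Swarna change, ran from 0.454 for replicate 1 to 0.771 for replicate 3.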

How the data were processed

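Panicle mRNA of DTY-IL and Swarna was sequenced with Illumina paired-end reads. The authors trimmed reads (Trimmomatic), estimated transcript abundance with Salmon 0.7.2 against RGAP 7 transcripts, correcting for sequence and GC bias, and deposited expected counts per gene as whole numbers without normalization. Deposited DESeq2 fold changes and p-values were not used. Columns carry a group and a number that is not a pot number, so they were assigned to groups. The greenhouse blocks of the pots could not be entered in a fit for that reason. Pots were separate, and p-values set a difference against the spread between these libraries.

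Counts were fitted in R 4.3.3 with edgeR 4.0.16 (minimum of 10 counts in total, TMM, quasi-likelihood, all 4 groups, Benjamini-Hochberg). Alternatives were DESeq2 1.42.0, limma-voom (limma 3.58.1), the likelihood ratio test, RLE factors, other filters, all 16 libraries, a replicate block, a threshold of 1 log2 unit and leaving out each library. Standard errors are the log2 difference over the square root of F. Named were the called loci, the 10 next, the 10 largest DESeq2 calls per direction with a mean of at least 50 counts and no overlap, loci with opposite effects, loci the study names and up to 3 per list. The members and lists were chosen with earlier results of these data known. None of 77 named identifiers was in the RefSeq table supplied, and the study's supplementary tables were used only in part, so loci without a function in its text are given by identifier, and no sequences are shown.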

Additional observations from a re-analysis of the deposited data

Results flagged for a closer look

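The drought effects of the genotypes differed, by the test of the difference itself (edgeR's quasi-likelihood interaction), at the 20 called loci. On the log2 scale the positive ones were LOC_Os11g32610 (5.44), LOC_Os11g32580 (5.15), LOC_Os01g18120 (4.98), LOC_Os04g43270 (4.85), LOC_Os01g70830 (3.93), LOC_Os07g47990 (3.78), LOC_Os09g27890 (2.95), LOC_Os04g08550 (2.66), LOC_Os04g30200 (2.38), LOC_Os02g09240 (1.65) and LOC_Os01g08320 (1.48). The negative ones were LOC_Os07g41170 (-3.99), LOC_Os10g31320 (-2.91), LOC_Os01g49710 (-2.47), LOC_Os10g32470 (-1.86), LOC_Os04g29424 (-1.76), LOC_Os11g10590 (-1.6), LOC_Os07g39300 (-1.5), LOC_Os01g47262 (-1.47) and LOC_Os03g25390 (-0.93).

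In 26 of 228 groups of 4 libraries, over 77 named loci, 1 library lay far from the other 3. In 5 of the 26 the other 3 libraries held 0 reads and the library that stood apart 1 or 2, a pattern that any read among zeros gives. These were Swarna drought replicate 4 at LOC_Os11g32610 (0.0795 CPM), Swarna drought replicate 2 at LOC_Os04g43270 (0.074) and LOC_Os02g53960 (0.074), Swarna drought replicate 1 at LOC_Os01g67030 (0.0363) and DTY-IL drought replicate 2 at LOC_Os10g34360 (0.0628), and they show nothing about those libraries. For the other 21, of 223 groups, chance gives about 1 in 20. Among the called loci these others were DTY-IL drought replicate 1 at LOC_Os11g32580 (3.94 CPM), Swarna drought replicate 1 at LOC_Os04g29424 (23.2), DTY-IL drought replicate 3 at LOC_Os01g70830 (15.9) and DTY-IL control replicate 4 at LOC_Os10g32470 (1.62).

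DTY-IL control replicate 3 was far above the other controls at LOC_Os03g13200 (163.5 CPM), LOC_Os10g34360 (28), LOC_Os03g07250 (46.4) and LOC_Os07g22850 (5.75), which is 1 peroxidase and the 3 anther loci with an unadjusted p under 0.05. Swarna drought replicate 1 was high at the peroxidases LOC_Os07g01370 (15.4) and LOC_Os03g13200 (9.81) and at LOC_Os07g10940 (0.363, 10 reads). The heat shock loci LOC_Os10g28340 and LOC_Os03g53340 were high in DTY-IL control replicate 2 (195.7 and 61.4) and the second also in Swarna drought replicate 2 (28.6), while DTY-IL drought replicate 2 was low at the first (29.3).

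Single libraries also stood apart at LOC_Os01g53180 (Swarna drought replicate 4, 5.21 CPM), LOC_Os11g47039 (Swarna drought replicate 3, 7.23), LOC_Os11g26750 and LOC_Os11g26790 (DTY-IL control replicate 1, 2.54 and 6.97), LOC_Os01g66030 (DTY-IL drought replicate 1, 137.6) and LOC_Os01g36390 (DTY-IL drought replicate 4, 5.27). What these libraries share with the interactions was not tested.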

How the results depend on the processing

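The number of loci with a passing interaction depended on the test and on the libraries far more than on the scaling or the filter. Against 20 in edgeR's quasi-likelihood test, limma-voom called 31, edgeR's likelihood ratio test 374 and DESeq2 without its prior 691, while a test against 1 log2 unit called 3, all 16 libraries 0 and the scaled interaction 11. Limma-voom shared 16 of the 20, and DESeq2, the likelihood ratio test and filterByExpr shared all 20. RLE factors called 18 and filterByExpr 29. Leaving out 1 library gave 2 to 27 calls, 3089 to 4814 loci with an unadjusted p under 0.05 and 9 to 22 loci with opposite effects. Loci with opposite effects numbered 31 in DESeq2, 34 in the likelihood ratio test and 3 with all 16 libraries, against 15. All 20 kept their direction in each of the alternatives named in the methods. In the scaled interaction LOC_Os11g10590 changed sign, at 0.0396 (adjusted p = 0.981, edgeR), as its effects of 2.14 and 3.74 stand nearly in the ratio of the slope.

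With the column number as a replicate block, 4 loci were called (LOC_Os07g47990, LOC_Os11g32580, LOC_Os09g27890 and LOC_Os10g31320) and 9 loci had opposite effects. The numbers are not pot numbers. Libraries with the same number correlated in their deviations from group means by -0.422 to 0.252 over 21 pairs, 8 of them over 0.1. The median was 0.0266 for these pairs and -0.0161 for 63 pairs with different numbers. Such correlations cannot decide whether libraries with the same number shared a block, since the numbers do not identify pots. Pots stood in randomized blocks, and as the columns do not say which, the blocks were not modelled.

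A locus that did not pass is not shown to respond alike in both genotypes. Counts of 3 or fewer per group limit LOC_Os11g32580, LOC_Os11g32610, LOC_Os01g18120 and LOC_Os04g43270.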
